A study of Homo sapiens with 4 samples.

Results

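Clusters that overlapped on opposite strands were collected from ADAR eCLIP in K562 cells, a human myelogenous leukaemia line that the labels call a lymphoblast. A cluster is a stretch of genome under piled-up reads of 1 strand, as the submitters listed it. A cluster was taken when it shared at least 1 base with a cluster on the other strand in either of the 2 replicate lists, with the mitochondrial chromosome left out. A peak of the submitters' list over both replicates was added when it overlapped such a cluster on its own strand. This gave 1394 of 533925 clusters of replicate 1, 689 of 155674 clusters of replicate 2 and 12 of 1717 peaks of the combined list, or 2095 of 691316 regions in all. Members were thus chosen by the listed positions and strands of the clusters in both replicates, and their folds over input are given as descriptions, without a test.

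The study held 4 libraries from untreated, UV-crosslinked cells. The IP libraries, replicates 1 and 2, came from immunoprecipitation with an antibody to ADAR1, and the input libraries, replicates 1 and 2, had no antibody. Nothing in the labels says whether the replicates were separate cultures. The growth protocol describes K562 and HepG2 cells. Of the erythroid markers searched, 18 of 18 held a cluster and 0 of those 18 held a doubly covered cluster, while 0 of 10 hepatocyte markers held a cluster. The lists give no library totals. Each cluster carried the authors' log2 fold of IP over input and −log10 p.

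ADAR1 binds double-stranded RNA and deaminates adenosine to inosine, which is read as guanosine. Its best-known human substrates are inverted Alu repeats that fold back within a single transcript, and its loss lets unedited duplexes activate cytoplasmic RNA sensors. A duplex can also form between transcripts of opposite strands, as where antisense genes overlap. Clusters on both strands show that RNA from each strand was recovered at a place. They do not show that the RNAs were paired.

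Some doubly covered stretches lay in the windows around annotated gene starts, and 6 of them are printed as examples of what was covered, picked with their values known. Of the 780 loci described below, 47 overlapped a listed start window, 12 lay wholly inside one and 20 had all their doubly covered bases inside one. The lines give the plus strand, 5′ to 3′, from RefSeq (GRCh38.p14), with the bases covered on both strands in capitals. By annotation, 5 of the 6 lie where genes run head to head, and LOC730183 has an annotated gene on minus alone. The stretches lie at NR2C2 and FGD5-AS1 (chr3:14947931-14948056), FADS2 and FADS1 (chr11:61816272-61816398), LOC730183 (chr16:30698545-30698627), PRR7 and PRR7-AS1 (chr5:177447318-177447474), ST7 and ST7-AS1, in the start window of ST7-OT4 (chr7:116953768-116953827), and FAM120A and FAM120AOS (chr9:93451720-93451757).
NR2C2/FGD5-AS1: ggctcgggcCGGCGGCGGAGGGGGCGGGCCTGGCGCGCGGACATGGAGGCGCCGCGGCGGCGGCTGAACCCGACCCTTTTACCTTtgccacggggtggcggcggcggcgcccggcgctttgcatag
FADS2/FADS1: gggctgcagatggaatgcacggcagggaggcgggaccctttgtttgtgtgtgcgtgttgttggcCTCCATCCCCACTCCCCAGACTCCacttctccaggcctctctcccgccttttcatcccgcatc
LOC730183: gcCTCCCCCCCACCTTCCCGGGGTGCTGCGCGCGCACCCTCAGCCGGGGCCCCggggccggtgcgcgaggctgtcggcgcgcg
PRR7/PRR7-AS1: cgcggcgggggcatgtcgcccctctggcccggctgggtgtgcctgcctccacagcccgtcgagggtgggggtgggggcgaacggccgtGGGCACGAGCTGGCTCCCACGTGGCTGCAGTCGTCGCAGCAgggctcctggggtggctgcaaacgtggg
ST7/ST7-AS1: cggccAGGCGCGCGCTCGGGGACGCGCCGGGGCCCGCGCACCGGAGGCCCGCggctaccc
FAM120A/FAM120AOS: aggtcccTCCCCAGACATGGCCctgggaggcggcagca

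At the NR2C2 and FGD5-AS1 stretch, the highest log2 folds of IP over input were 3.66 on plus and 2.55 on minus in replicate 1, and 3.18 on plus in replicate 2, with no minus cluster there. NR2C2 encodes an orphan nuclear receptor and FGD5-AS1 is a long noncoding RNA read the other way. At FADS2 and FADS1, which encode fatty acid desaturases, the log2 folds of replicate 1 were 0.92 on plus and 3.61 on minus. LOC730183 had 3.02 on plus and 1.85 on minus in replicate 1. The stretch at PRR7 had 0.91 on plus in replicate 1, and 3.44 on plus and 1.85 on minus in replicate 2. In replicate 1, ST7 had 1.07 on plus and -0.15 on minus, and FAM120A had 1.27 on plus and 0.59 on minus. The stretches at FADS2, LOC730183, ST7 and FAM120A had no doubly covered cluster of replicate 2, so they allow no comparison between replicates. Folds were uneven between strands. At NR2C2 and PRR7 only plus had clusters of both replicates. In replicates 1 and 2 these had 3.66 and 3.18 at NR2C2, and 0.91 and 3.44 at PRR7. The replicate 2 cluster at NR2C2 came from 5 IP reads over 1 input read. The median GC content was 71.7% over 48 start windows under these loci, 67.0% over 6094 windows under any cluster and 58.7% over all 35116 windows.

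MIR6503, a microRNA gene, lies on the minus strand of chr11:60209071-60209156, within the span of MS4A4E, and the 86 bases of its hairpin were spanned by clusters of the opposite strand, plus, in both replicates. Its mature products are given with the seed, bases 2 to 8, in capitals.
hsa-miR-6503-5p: aGGUCUGCauucaaauccccaga
hsa-miR-6503-3p: gGGACUAGgaugcagaccucc

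The plus clusters over MIR6503 had log2 folds of 1.73 in replicate 1 and 2.18 in replicate 2. On minus, the strand of the hairpin, replicate 1 had a cluster of 1.97 at 60209079-60209108, which takes in the 3p product and not the 5p product. A further minus cluster of replicate 1 at the locus, outside the hairpin, had -1.0, and replicate 2 had no minus cluster there. None of these 4 clusters was enriched by the thresholds given below.

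The 2083 replicate clusters formed 1392 opposite-strand pairs and, merged by overlap, 780 loci. There were 1050 clusters on plus and 1033 on minus. A pair shared a median of 33 bases and at most 125, and the centres of partners lay a median of 20 bases apart. Loci had a median width of 89 bases; 448 held 2 clusters and 48 held 5 or more. Of the pairs, 616 lay within replicate 1, 217 within replicate 2 and 559 across the lists. Median cluster width was 55 bases for doubly covered clusters and 47 bases for all clusters of replicate 1, and 66 and 59 bases in replicate 2.

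Replicate 1 covered both strands at 558 loci and replicate 2 at 189. Both replicates did so at 73 loci, and 106 loci had their strands joined only across the lists. Loci were then rebuilt from each list alone, which changes their number slightly, and looked up in the other list. Of 559 loci built from replicate 1, 72 had clusters on both strands in replicate 2 (12.9%, exact 95% interval 10.2 to 15.9%) and 45.6% had a cluster on either strand. Of 188 loci built from replicate 2, 72 had both strands in replicate 1 (38.3%, 31.3 to 45.7%) and 86.7% had either. Among clusters with no opposite partner in their own list, 0.0193% of those of replicate 1 met clusters on both strands in replicate 2, and 0.113% of those of replicate 2 did so in replicate 1. A same-strand cluster was met by 18.2% and 59.2% of them, and an opposite-strand cluster by 0.0411% and 0.183%. The intervals cover counting error only, and neighbouring clusters are not independent.

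An enriched cluster was one whose log2 fold and −log10 p both reached 3. In replicate 1, 38 of 1394 doubly covered clusters were enriched (2.73%, 1.94 to 3.72%), beside 1.38% of all its clusters. In replicate 2, 131 of 689 were (19%, 16.1 to 22.1%), beside 12.8% of all. The median log2 fold was 0.59 for doubly covered clusters and 0.07 for all clusters in replicate 1, and 2.44 and 1.85 in replicate 2. Because these folds belong to the contrast that made the clusters, the shares support nothing further. Just inside the limit of the choice, clusters of the 85 pairs that shared 1 to 5 bases had median log2 folds of 0.59 in replicate 1 and 2.44 in replicate 2. Just outside, 34 opposite-strand neighbours 0 to 4 bases apart had 0.05 and 2.31.

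The replicates differed in the ratio of IP to input depth and in the IP reads that an enriched call took. The most frequent fold of a list was read as 3 IP reads to 1 input read. This assumption set the ratio at 3.33 in replicate 1 and 0.553 in replicate 2. Whole read counts were then worked back from fold and p. With 1 input read, the lowest count tried, an enriched call took at least 37 IP reads in replicate 1 and 9 in replicate 2. Whether a count of 1 stands for no input read was not tested. Among clusters with p below 1, doubly covered clusters had a median of 19 IP and 2 input reads in replicate 1, where all clusters had 18 and 2. In replicate 2 both sets had 6 and 2. Only clusters with unique read counts entered, 630 of 1394 doubly covered clusters in replicate 1 and 625 of 689 in replicate 2. The replicates are therefore not compared on like sets. The part of depth in the difference between replicates was not tested.

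Overlapping enriched clusters on both strands were found at 7 loci, and in 14 of the 1392 pairs. In 114 pairs the plus cluster alone was enriched, in 114 the minus cluster alone, and in 1150 neither. An enriched cluster of any kind lay at 111 loci. Every doubly enriched pair held at least 1 cluster of replicate 2, and the number of such loci was 0 in replicate 1 by itself.

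**Figure D1:**
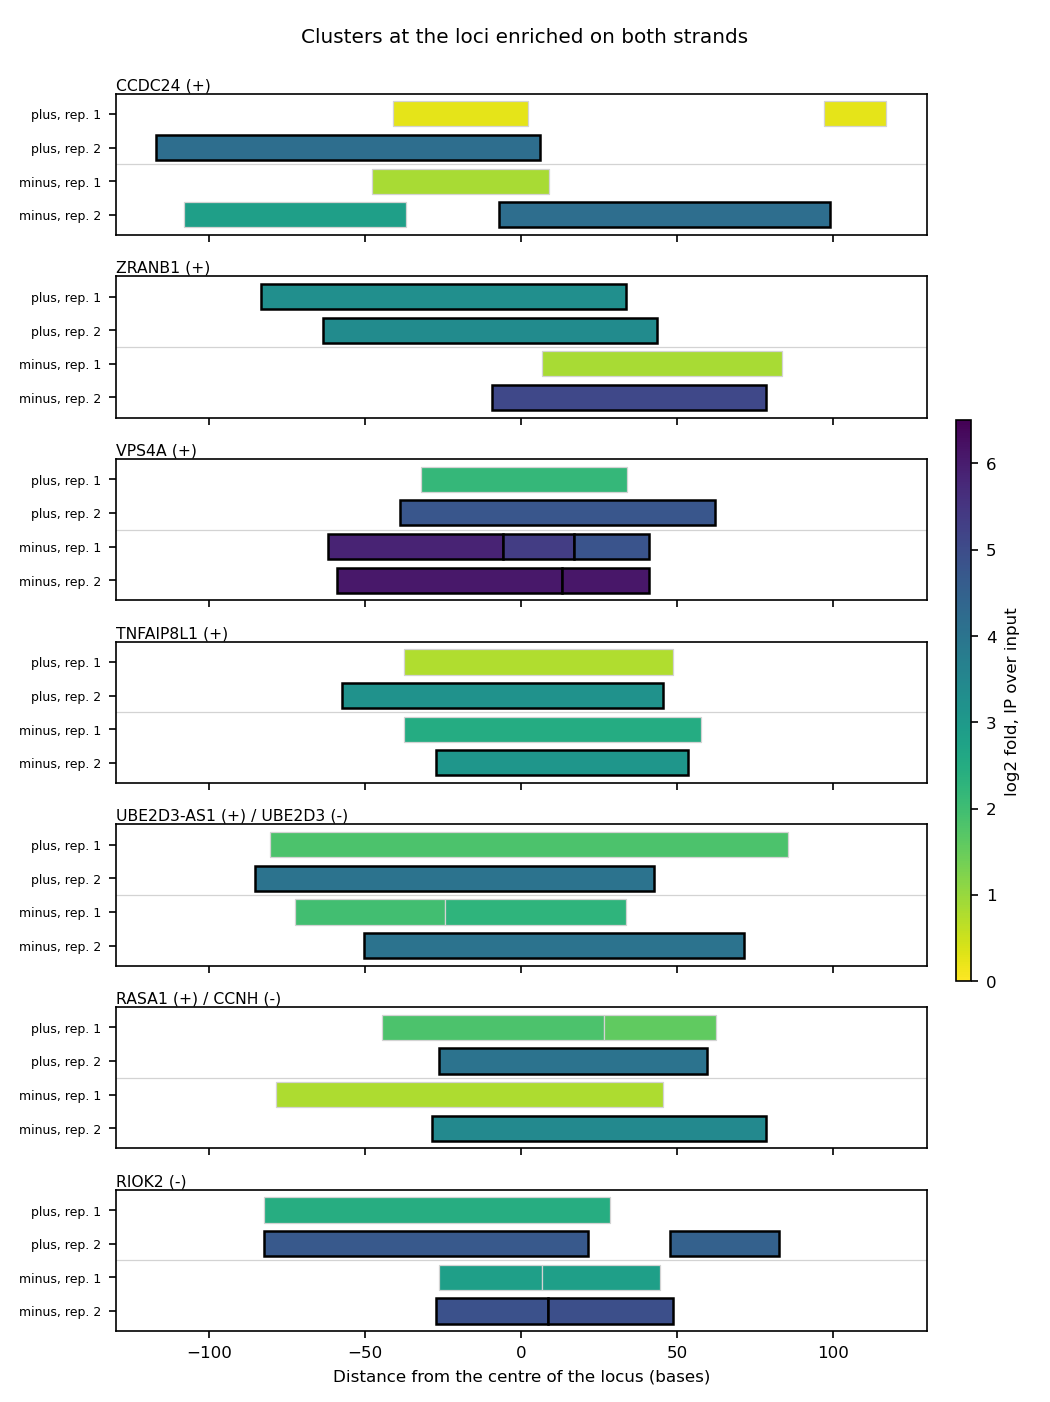
Clusters at the 7 loci with overlapping enriched clusters on both strands, drawn to scale as distance from the centre of each locus in bases. Rows are strands and replicates, colour is the log2 fold of IP over input, and a black edge marks an enriched cluster; at VPS4A the minus clusters of both replicates are enriched, at 4.82 to 6.10.

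VPS4A, which encodes an ATPase that takes apart the ESCRT membrane-scission machinery, is read from plus, yet its strongest clusters were on minus (chr16:69323222-69323345). The 3 minus clusters of replicate 1 had log2 folds of 5.87, 5.34 and 4.82, from 194, 135 and 94 IP reads over 1 input read each. The 2 minus clusters of replicate 2 had 6.08 and 6.10, from 112 IP over 3 input reads and 76 over 2. The plus clusters had 2.17 in replicate 1 and 4.76 in replicate 2, each from 15 IP reads over 1 input read. Minus was thus higher than plus in both replicates. The minus-strand gene COG8, which encodes a Golgi tethering subunit, ends 3103 bases upstream of the nearer of the peaks listed here.

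RIOK2, an atypical kinase of small ribosomal subunit maturation, is read from minus (chr5:97164075-97164239). Its minus clusters had log2 folds of 4.90 and 4.94 in replicate 2, from 33 and 34 IP reads over 2 input reads each. In replicate 1 both minus clusters had 2.85, from 24 IP reads over 1. On plus, with no annotated gene of set strand, the folds were 4.71 and 4.50 in replicate 2 and 2.44 in replicate 1. The strands were within 0.5 of each other in each replicate, with all of replicate 1 short of the threshold.

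ZRANB1 encodes a deubiquitinase and is read from plus (chr10:124945933-124946099). Its plus clusters were enriched in both replicates, at a log2 fold of 3.29 in replicate 1, from 65 IP reads over 2 input reads, and 3.38 in replicate 2, from 46 over 8. The minus clusters had 0.85 in replicate 1, from 18 IP reads over 3, and 5.10 in replicate 2, from 19 over 1. Which strand was higher therefore changed between replicates.

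At TNFAIP8L1, a member of the TNFAIP8 family read from plus (chr19:4654389-4654503), the plus clusters had log2 folds of 0.77 in replicate 1 and 3.18 in replicate 2. The minus clusters had 2.51 and 3.08. CCDC24, read from plus (chr1:43994159-43994392), had an enriched cluster on each strand in replicate 2, both at 4.18 from 10 IP reads over 1 input read, sharing 13 bases. In replicate 1 its clusters reached 0.27 on plus and 0.85 on minus. These calls rest on replicate 2 alone.

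A pair of the 7 loci lay where annotated genes overlap. UBE2D3, a ubiquitin-conjugating enzyme read from minus, contains the span of UBE2D3-AS1 on plus (chr4:102834783-102834953). In replicate 2 each strand had a log2 fold of 4.02 from 9 IP reads over 1 input read, with 93 bases shared. In replicate 1 the plus cluster had 1.85 and the minus clusters 1.97 and 2.27. RASA1, a RAS GTPase-activating protein on plus, and CCNH, the cyclin of the CDK-activating kinase on minus, overlap at their 3′ ends (chr5:87382952-87383108). Replicate 2 had 4.02 on plus, from 9 IP reads over 1, and 3.44 on minus, from 36 over 6. Replicate 1 had 1.85 and 1.59 on plus and 0.79 on minus.

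The folds of the strands were only loosely related. Across the 558 loci with both strands in replicate 1, the highest plus and minus log2 folds had Pearson's r of 0.26 and Spearman's rho of 0.27. Across 189 loci in replicate 2 they were 0.17 and 0.16. The points share library and local depth, and loci are not independent replicates, so no p is given. The stronger strand had a median log2 fold of 1.07 in replicate 1 and 3.18 in replicate 2, and the weaker strand -0.15 and 1.85. Plus was higher at 278 loci and minus at 257 in replicate 1, and at 93 and 88 in replicate 2.

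**Figure D2:**
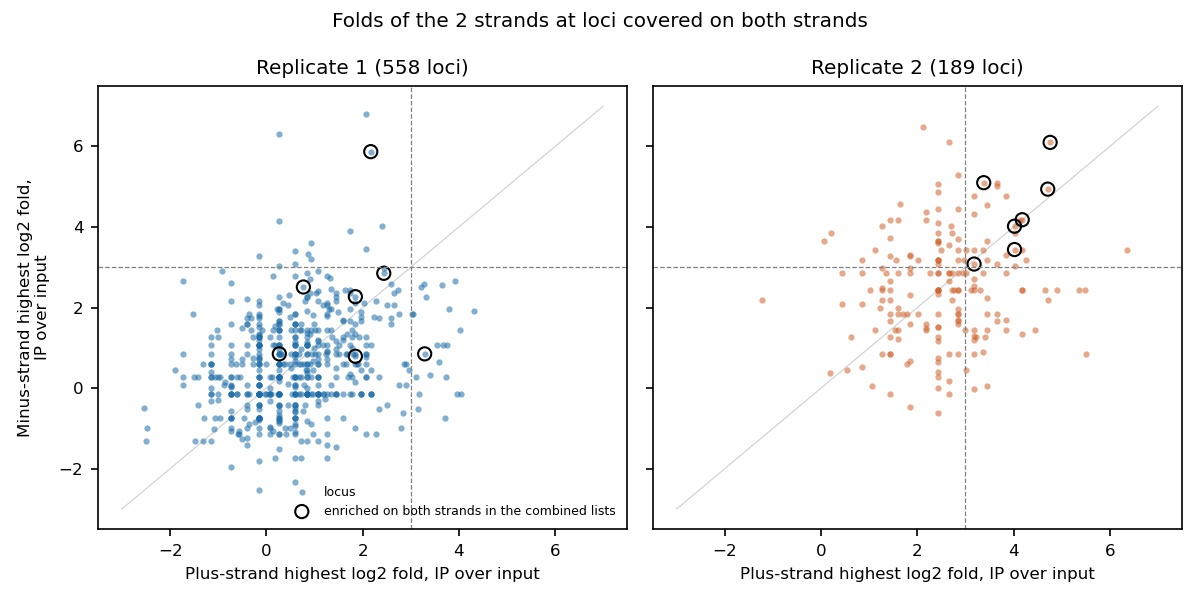
Highest log2 fold of IP over input on plus (horizontal) and minus (vertical) at each locus covered on both strands, with 558 loci of replicate 1 on the left and 189 of replicate 2 on the right. Dashed lines mark a log2 fold of 3 and circles the 7 loci called on both strands; other points past both lines missed the p threshold or had no overlapping enriched pair.

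Of the 73 loci covered on both strands in both replicates, 49 had log2 folds above 0 for the highest cluster of each strand and replicate. The same strand was the stronger in both replicates at 41, the opposite strand at 25, and the strands were equal in a replicate at 7. The strand difference had Pearson's r of 0.51 between replicates over these 73 loci, without p. Genes of set strand lay on both strands at 32 of them, 22 in the tail-to-tail arrangement.

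By annotation, 365 of 780 loci (46.8%, 43.2 to 50.4%) lay where gene spans of both strands overlap. Tail-to-tail genes, whose 3′ ends overlap, held 195 loci (25%), head-to-head genes 77 (9.87%), and a gene within another gene 87 (11.2%). Genes of set strand lay on 1 strand only at 370 loci (47.4%), some of which also held a gene of unset strand. At 35 loci every gene was of unset strand, and 10 lay in no gene. Strand was not set for 28597 of 59679 genes, so overlaps with those genes were not counted. Within replicate 1, 48.3% of doubly covered clusters and 4.23% of all clusters lay in spans of both strands, and in replicate 2 the shares were 39.6% and 3.82%. Protein-coding spans of both strands held 19.9% of doubly covered clusters and 1.40% of all in replicate 1, and 14.2% and 1.18% in replicate 2. Among all clusters in spans of both strands, 2.98% in replicate 1 and 4.60% in replicate 2 had an opposite-strand partner, against 0.141% and 0.278% outside such spans. Exons and introns were not assigned here.

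Gene starts were also more often near. A start lay within 1 kb of 147 loci (18.8%, 16.2 to 21.8%). In replicate 1 this held for 21.2% of doubly covered clusters and 5.59% of all, and in replicate 2 for 10.2% and 4.07%. The exact intervals of the doubly covered and all clusters did not overlap in either replicate. They treat clusters as independent, which partners at the same place are not, so they serve as no test.

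**Figure D3:**
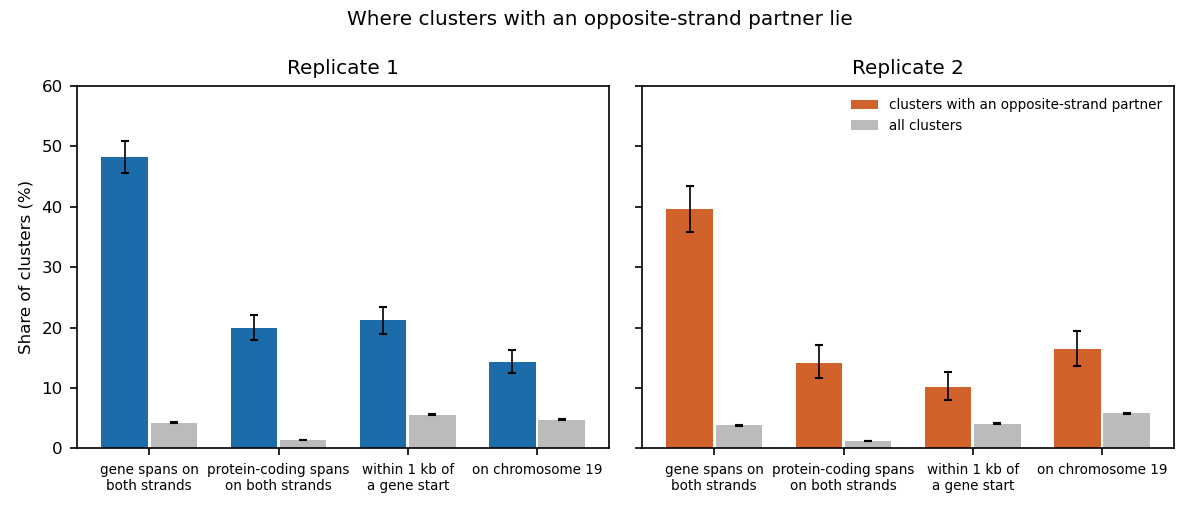
Share of clusters in each position, with doubly covered clusters (coloured) left of all clusters (grey) for replicate 1 and replicate 2, and exact 95% binomial intervals as bars. In gene spans of both strands the shares are 48.3% against 4.23% in replicate 1 and 39.6% against 3.82% in replicate 2.

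Where genes of set strand lay on 1 strand only, 47.3% of doubly covered clusters in replicate 1 and 45.0% in replicate 2 were antisense. The choice of opposite partners brings this share near an even split. Among all clusters so placed 0.846% and 0.86% were antisense. Some of these clusters also lay in a gene of unset strand, and 2003 gene strands were set from the clusters themselves. In replicate 2, 15.9% of antisense and 24.0% of sense doubly covered clusters were enriched, beside 10.1% of all antisense and 13.0% of all sense clusters. In replicate 1 the doubly covered shares were 1.66% for antisense and 3.27% for sense, beside 1.89% and 1.37% of all, so the order of antisense and sense differed there between doubly covered and all clusters. The exact intervals of antisense and sense doubly covered clusters overlapped in both replicates, and these too treat clusters as independent and serve as no test. Antisense doubly covered clusters lay within 5000 bases past the 3′ end of a gene of their own strand in 25.8% of cases (21.0 to 31.2%) in replicate 1, against 18.1% of all antisense clusters. In replicate 2 the shares were 31.8% (24.8 to 39.3%) and 21.1%.

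Chromosome 19, rich in zinc finger genes, held 312 of the doubly covered clusters and 114 loci. It had 15% of doubly covered clusters and 4.96% of all clusters, or 9.12 per 1000. Within replicate 1 the shares were 14.3% and 4.72%, and within replicate 2 16.4% and 5.79%.

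**Figure D4:**
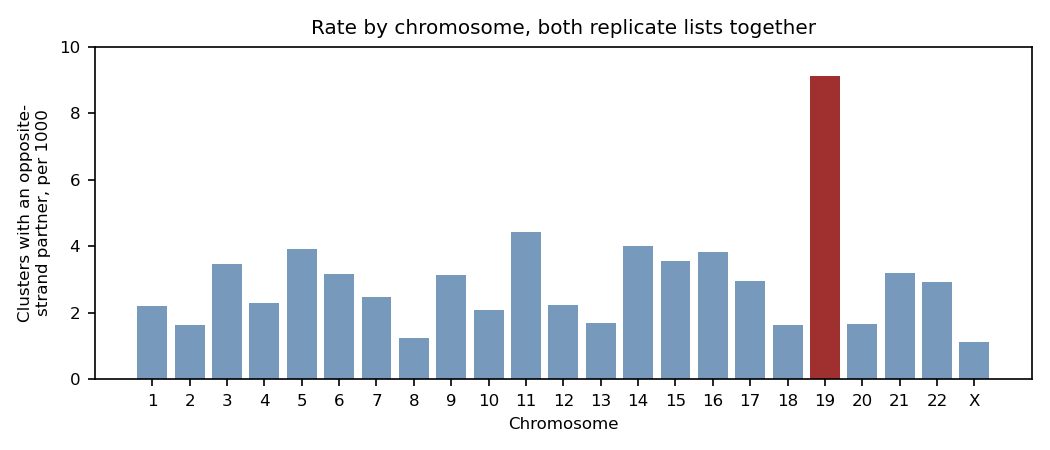
Doubly covered clusters per 1000 clusters on each chromosome, with both replicate lists together. Chromosome 19 (red) has 9.12 per 1000.

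Doubly covered clusters fell in 677 genes, of which 367 held 1 to 3 and 71 held 10 or more. The 10 genes with the most held 200 together, and several share the same clusters because they overlap. RDH13, a mitochondrial retinol dehydrogenase gene on minus of chromosome 19, had 42 clusters in 12 loci. Its median log2 folds were 1.27 on plus and 1.28 on minus in replicate 1, and 1.79 and 1.59 in replicate 2. The strands of RDH13 were thus alike in median in both replicates. GP6-AS1, a plus-strand noncoding gene that overlaps its end, had 33 clusters, of which 4 plus clusters of replicate 2 were enriched, up to 5.36.

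ZNF544, a zinc finger gene on plus, and ZNF8-DT on minus had the same counts, 33 clusters in 11 loci each, and 0 enriched. LINC03009 and POMZP3 each had 32 clusters in 11 loci, 3 of them enriched, all plus clusters of replicate 2. POMZP3 resembles POM121 and ZP3, and how reads were divided between such copies was not tested. RASA1 and CCNH each had 29 clusters in 11 loci, with 2 plus and 1 minus clusters of replicate 2 enriched. SERHL2, a serine hydrolase-like gene with a close copy beside it, had 27 in 8 loci, with log2 folds up to 6.35 on plus in replicate 2 and at most 0.59 on plus in replicate 1. NR2C2 had 23 in 8 loci. The replicates therefore differed widely at SERHL2.

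**Figure D5:**
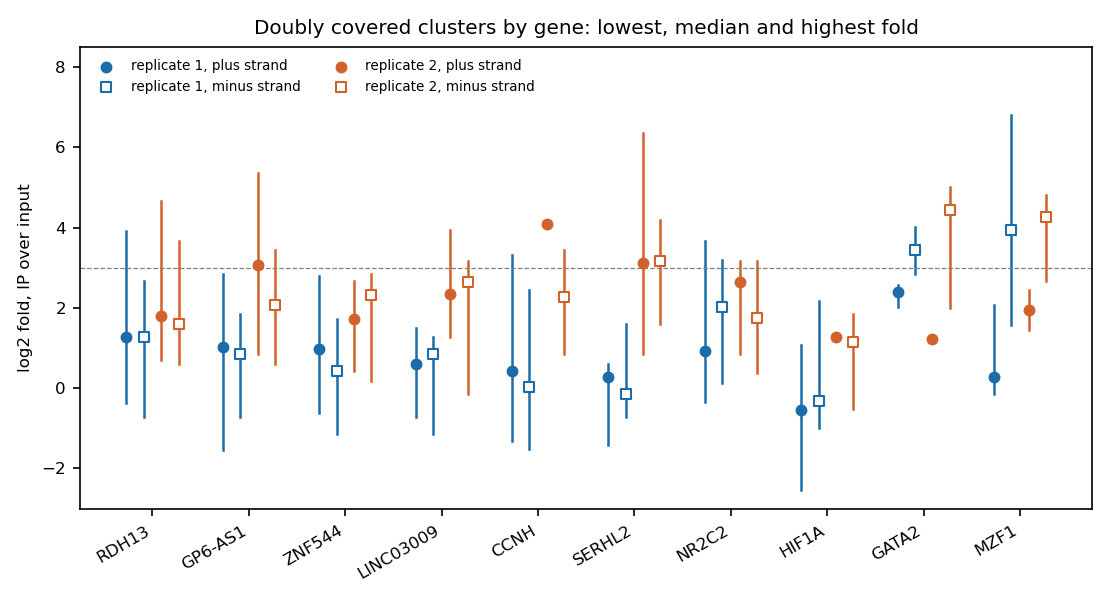
Log2 fold of IP over input of doubly covered clusters in 10 genes, by strand and replicate, with markers at the median and lines from lowest to highest. The dashed line is a log2 fold of 3; the minus clusters of MZF1 reach 6.80 in replicate 1 and 4.82 in replicate 2, above its plus clusters, which reach 2.07 and 2.44.

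The combined list held 12 peaks on doubly covered clusters (0.699% of 1717, 0.362 to 1.22%). Of these, 0 overlapped a combined-list peak on the opposite strand. That count was not made over all 1717 peaks, so it shows no trait particular to the 12. MZF1, a zinc finger transcription factor gene on minus that overlaps MZF1-AS1 on plus, had 4 of them, all on minus, at the authors' log2 folds of 5.83, 5.28, 4.46 and 4.45. Under the peak at 5.83, the minus cluster of replicate 1 had 6.80, from 370 IP reads over 1 input read, and the plus cluster 2.07, from 14 over 1. Under the peak at 5.28 the minus clusters had 6.30 in replicate 1 and 4.26 in replicate 2, and the plus cluster of replicate 1 had 0.27. The minus strand of MZF1 was the higher in each case.

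VPS4A had 2 combined-list peaks on minus, at 5.99 and 5.47. KMT2E, a SET-domain family gene on plus, had a plus peak at 4.60, whose clusters had 3.71 and 3.31 in replicate 1 and 5.48 in replicate 2, against -0.73 and 2.44 on minus. VWA8, a gene on minus, had a plus peak at 3.84, antisense to it, with 2.76 in replicate 1 from 337 IP reads over 15 and 4.92 in replicate 2 from 218 over 13. The minus cluster of VWA8 had 0.07 in replicate 1. The other 4 peaks lay in spans of mitochondrial pseudogenes. They were MTND2P28 at 4.90, MTATP6P1 at 3.64, MTND5P11 within PCBD2 at 3.53 and MTND4P12 within PCBD2 at 3.47. Such spans are near copies of mitochondrial DNA, and whether their reads came from there was not tested.

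The longest opposite-strand overlaps showed that long sharing did not need enrichment. CTCF, which encodes the chromatin insulator protein, shared 125 bases with LOC124903703, at log2 folds of 1.49 on plus and 1.9 on minus in replicate 1. UBE2D3 followed with 122 bases between a plus cluster of replicate 1 at 1.85 and a minus cluster of replicate 2 at 4.02. LRRC37A2, in a family of close copies, shared 118 bases at 0.14 and -1.06 in replicate 1, MTATP6P1 shared 107 bases at 1.64 and 2.71 across replicates, and GPSM2 with CLCC1 shared 107 at -0.58 and -1.15.

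Gene lists gave the wider setting. Of 1354 antisense or divergent transcripts, taken by symbol, with any cluster, 104 held a doubly covered cluster (7.68%), beside 677 of 21262 genes of all kinds (3.18%). Their spans, with clusters of either strand counted, held 528 of the 2083 doubly covered clusters (25.3%) and 2.83% of all clusters. The highest in the span of OIP5-AS1, a gene on plus, was a minus cluster of replicate 2 at a log2 fold of 6.10. It lay on the strand of OIP5, and the minus cluster of replicate 1 overlapping it had 1.38, not enriched. The plus clusters in the span of OIP5-AS1 reached 3.66 in replicate 2, and none was enriched. In the span of SPAG5-AS1, whose strand was not set, the highest was a minus cluster of replicate 2 at 5.50. That cluster also lay in RSKR, a gene on minus. The minus cluster of replicate 1 overlapping that cluster had 1.27 and was not enriched. Of 51 genes of known natural antisense pairs with a cluster, 9 held a doubly covered one (17.6%), on either strand. Partners such as ERCC1 and POLR1G were listed as separate genes, so a cluster in both spans counted for each. Among the 9, DLEU2, on minus, had up to 2.27 on plus and 1.66 on minus in replicate 1. In replicate 2 it had up to 3.85 on plus and 1.44 on minus. ERCC1, on minus, and POLR1G, on plus, had up to 0.59 on plus and 2.79 on minus in replicate 1. In replicate 2 they had 0.85 on plus and no doubly covered minus cluster. HIF1A, on plus, had up to 1.07 on plus and 2.17 on minus in replicate 1. In replicate 2 it had up to 1.27 on plus and 1.85 on minus. None of the clusters of those 4 genes was enriched.

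Lists tied to double-stranded RNA were small, and their counts stand beside the 3.18% of all genes with a cluster. Among edited or recoding targets, 1 of 15 genes with a cluster held a doubly covered one (6.67%), SON, at -0.27 on plus and 0.59 on minus in replicate 1. Transcripts edited in 3′ Alu repeats had 0 of 13, double-stranded RNA sensors 0 of 5 and double-stranded RNA helicases and decay factors 0 of 9. Double-stranded RNA binding proteins had 2 of 15 (13.3%), SON and PRKRA, an activator of the kinase PKR whose clusters lay between -1.15 and 1.99 over both replicates. MicroRNA genes had 5 of 486, small nucleolar and spliceosomal RNA genes 1 of 489, histone genes 2 of 62, transfer RNA genes 0 of 7 and ribosomal RNA genes 0 of 70. The histone symbols were H2BC5 and its overlapping H2BC6-AS1, with log2 folds between 1.73 and 2.35 over both.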

How the data were processed

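The deposited lists give, per cluster, the authors' −log10 p and log2 fold of IP over input for each replicate and for both combined. The submitters' processing notes name cutadapt 1.9 and STAR 2.4.0i; for the caller and the combining of replicates, the sources used here give nothing. The notes name GRCh38 and hg19. GRCh38 was taken, since the main cluster strand was the annotated one for 99.1% of 8216 genes (RefSeq GRCh38.p14). These were the genes with a listed start and at least 5 clusters, of which at least 80% lay on 1 strand. Gene strand came from listed starts (29079 genes) or from at least 5 clusters with 80% on 1 strand (2003 genes). Read counts were worked back from fold and p within 0.005 of −log10 p, with the most frequent fold of a list read as 3 IP reads to 1 input read, and were unique for 98.5% and 99.4% of enriched clusters in replicates 1 and 2. The steps were tested on simulated data. Intervals are exact binomial at 95%. Named genes were doubly enriched loci, the 10 genes with the most members, combined-list peaks, the 5 longest overlaps and up to 4 genes per list. Members and lists were chosen with earlier results of these data known. Python 3.11.15, numpy 2.4.6, scipy 1.17.1 and pandas 2.3.3 were used.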

Additional observations from a re-analysis of the deposited data

How the results depend on the processing

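Of 37 alternatives, 21 stayed within 1.5 times the count or within the interval of the share, and 16 moved. Taking partners from the other list only left 533 clusters of replicate 1, and from the same list only 405 of replicate 2. Loci numbered 188 without replicate 1 and 559 without replicate 2. A log2 fold of at least 2 gave enriched shares of 4.45% in replicate 1 and 23% in replicate 2, beside 2.45% and 16.8% of all clusters, and 14 doubly enriched loci. A log2 fold of at least 4 gave 0.861% and 12.6%, beside 0.466% and 7.09%, and 4 loci. A −log10 p of at least 5 gave 12.3% in replicate 2, beside 8.2%, and 4 loci. Leaving out a replicate gave 0 to 7 doubly enriched loci, with 0 without replicate 2, and 7 to 12 combined-list peaks, with 7 without replicate 1. Starts lay within 300 bases of 10.8% of loci and within 3 kb of 26.5%, beside 2.42% and 10.9% of all clusters. Protein-coding spans alone left 19.5% of loci on both strands, beside 1.35%. An alternative chosen after seeing the data, leaving out mitochondrial pseudogene spans, left 8 combined-list peaks. No paired analysis was possible because each fold already sets an IP over the input of its own replicate number, and no test was made across replicates that a block could enter. The 1 to 2 input reads behind most strong folds limit their precision.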

Other observations

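GATA2, a transcription factor gene of blood progenitors on minus, and GATA2-AS1 on plus shared 14 doubly covered clusters in 4 loci; they were chosen after their values were seen. The 2 minus clusters of replicate 1 had log2 folds of IP over input of 2.85 to 4.02, and the 6 plus clusters 2.02 to 2.56. In replicate 2 the 5 minus clusters had 1.99 to 5.02, of which 3 were enriched, and the plus cluster had 1.23. VIM, the intermediate filament gene on plus, and VIM-AS1 on minus had 6 clusters in 1 locus, also chosen after their values were seen. Plus had -0.24 and -0.10 in replicate 1 and -1.22 in replicate 2, and minus had 0.14 and 1.44 in replicate 1 and 2.18 in replicate 2.

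The mitochondrial chromosome, left out by the choice of clusters, is transcribed from both strands. There, 0 of 236 clusters of replicate 1 and 0 of 174 of replicate 2 overlapped a cluster of the opposite strand, which allows shares of up to 1.55% and 2.10% (exact 95% upper bounds). Nuclear mitochondrial pseudogene spans held 1.51% of doubly covered clusters and 0.0212% of all clusters in replicate 1, 1.89% and 0.0302% in replicate 2, and 10 loci.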
